A study of Mus musculus with 9 samples.

Results

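The genes described here are 7 genes of the early B-cell precursor: Vpreb1, Vpreb2 and Igll1 of the surrogate light chain, the related Vpreb3, and Dntt, Rag1 and Rag2 of V(D)J recombination. They were chosen by symbol, as 7 of the 15265 genes in the count tables, and a symbol with no row in a library's table was taken as 0. All 7 were found, although Dntt had no row in Pot1a wt/wt 1 and Rag2 none in Pot1a fl/fl 3. The count tables come from Drop-seq, in which each cell's RNA is captured on a barcoded bead inside a droplet, of unselected bone marrow (BM) cells.

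There were 4 libraries of NG2-cre/Pot1a fl/fl mice and 5 of NG2-cre/Pot1a wt/wt mice (hereafter Pot1a fl/fl and wt/wt), all C57BL/6 and 2-3 weeks old. Both genotypes carried NG2-cre, so they differ in the floxed alleles of Pot1a, which encodes a protein that shields chromosome ends. NG2-cre acts in pericytes and mesenchymal stem cells of the marrow, so the B-cell precursors measured here were not themselves the cells meant to lose Pot1a. The labels do not say which mouse each library came from, and the study describes fewer mice than libraries in each group, so p-values over libraries measure the spread between these libraries and may be too small.

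A B-cell precursor first joins the V, D and J segments of its heavy chain locus. RAG1 and RAG2 form the recombinase that cuts at the segment borders, and terminal deoxynucleotidyl transferase, the product of Dntt, adds untemplated bases at the heavy chain joints. The new heavy chain reaches the surface with the surrogate light chain, made of a VpreB protein (from Vpreb1 or Vpreb2) and the lambda-like protein encoded by Igll1. This pre-B-cell receptor drives a burst of division, after which the surrogate light chain genes are switched off, and the recombinase returns to join the light chain segments. Vpreb3 encodes a related immunoglobulin-fold protein that binds immunoglobulin chains inside the cell and, in the mouse, stays on until the immature B cell.

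Igll1 (chr16:16860671-16863985, GRCm38, minus strand, 3 exons) and Vpreb1 (chr16:16868403-16870843, minus strand, 2 exons) are neighbours, 4417 bases apart with 0 genes between them. Vpreb2 (chr16:17980428-17981273, plus strand, 2 exons) lies 1109584 bases from Vpreb1 on the same chromosome. Vpreb3 (chr10:75943057-75949657, plus strand, 2 exons) and Dntt (chr19:41029275-41059525, plus strand, 12 exons) lie on chromosomes of their own among the 7 genes. Rag2 (chr2:101624718-101632529, plus strand, 3 exons) and Rag1 (chr2:101638282-101649501, minus strand, 2 exons) form a pair 5752 bases apart, with 0 genes between them.

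The promoter stretches of the surrogate light chain genes and Vpreb3 are shown because Vpreb1 and Vpreb2 are near copies there, and because Vpreb3, whose counts were spread otherwise than those of Vpreb1 and Igll1, holds another motif. Sequences are from RefSeq (GRCm38.p6), on each gene's own strand, and all 7 genes were matched. Capitals mark CAGGTG, the E-box that E2A and related factors can bind (CACCTG is the same motif read on the other strand), or ATTTGCAT, the octamer of immunoglobulin promoters.
Vpreb1: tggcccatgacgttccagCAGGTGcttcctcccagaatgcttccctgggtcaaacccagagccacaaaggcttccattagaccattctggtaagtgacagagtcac
Vpreb2: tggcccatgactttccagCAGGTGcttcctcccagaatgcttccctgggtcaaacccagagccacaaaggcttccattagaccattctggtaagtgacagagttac
Igll1: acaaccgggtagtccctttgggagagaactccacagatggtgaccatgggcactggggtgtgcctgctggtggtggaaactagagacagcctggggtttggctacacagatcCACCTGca
Vpreb3: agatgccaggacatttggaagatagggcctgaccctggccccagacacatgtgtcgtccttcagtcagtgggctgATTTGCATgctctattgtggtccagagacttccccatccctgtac

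The Vpreb1 stretch (chr16:16869256-16869361) and the Vpreb2 stretch (chr16:17980315-17980420) were identical at 104 of 106 bases. They differ at G12T and C104T, with the Vpreb1 base first, the position counted from 1 at the 5′ end of the printed run, and the Vpreb2 base last. The Igll1 stretch is chr16:16863986-16864105 and the Vpreb3 stretch chr10:75948180-75948299, both ending at the base before the RefSeq start. RefSeq and GENCODE place the gene starts of Vpreb1, Vpreb2 and Vpreb3 differently. The Vpreb1 and Vpreb3 stretches end at their RefSeq starts but lie within the GENCODE genes, and the Vpreb2 stretch ends 145 bases before its RefSeq start.

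Both strands of the 250 bases before each RefSeq start were searched for 3 motifs, which do not overlap each other in these genes. CAGGTG was found before Vpreb1, Vpreb2, Igll1 and Rag1, and in 17.2% of 32851 promoters. ATTTGCAT was found before Vpreb3 alone of the 7, from 45 to 38 bases before the start, and in 1.60% of promoters. CCCNNGGG, the motif of EBF1, was found before Igll1 alone of the 7, and in 11.8% of promoters. These matches describe letters in a window and were not tested against the counts.

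The transcripts are also alike. Vpreb1-201 and Vpreb2-201 were identical at 739 of 759 aligned bases (97.4%), and of the 50-base stretches of their last 300 bases, where Drop-seq reads fall, 12.0% were shared exactly. A read from such a stretch cannot be placed on 1 of the genes, and the handling of such reads is not given in the sources used here, so the split between Vpreb1 and Vpreb2 is uncertain. Exons of Vpreb1 overlap Top3b by 108 bases on the opposite strand, and exons of Rag1 and Rag2 overlap B230118H07Rik by 80 bases on the same strand and 208 on the opposite one. Whether the counting used strand is not given in the sources used here. B230118H07Rik had 38 counts in all libraries, and Top3b 101.

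Each library held 100 barcodes, and 899 of 900 were kept. Total counts per library lay between 119459 (Pot1a fl/fl 3) and 465277 (Pot1a fl/fl 1), so that 3 counts, the most that a count of 0 allows, stand for 6.45 to 25.1 CPM, the counts of a gene scaled to a library total of 1000000. These limits and the intervals below cover counting error only. Pot1a fl/fl 3 and wt/wt 5 were the shallowest libraries, and wt/wt 5 held 3 of the 7 cells with a high doublet score. Pot1a wt/wt 2 and 3 shared 19 barcodes, the only 1 of 36 pairs of libraries to share any. Counts of a shared barcode correlated between them at r = 0.932 to 0.965 (log scale), so some cells may be in both, which was not tested. Most tests between genotypes were therefore also computed with both as 1 library. Cell numbers, shares of cells and intervals below count each shared barcode in both libraries. By Xist and 4 Y-linked genes, Pot1a fl/fl 1, 3 and 4 and wt/wt 1, 4 and 5 came from females.

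In whole marrow the 7 genes together gave few counts, and none differed between genotypes beyond the spread of the libraries. Vpreb3 gave 1001 counts in all, Igll1 505, Vpreb1 363, Dntt 82, Vpreb2 60, Rag2 31 and Rag1 26. Values below are CPM of counts summed over a library. In bulk sums of this kind, fewer cells of a type and less RNA per cell cannot be told apart.

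Vpreb1 stood at 70.9, 160.1, 167 and 195 CPM in Pot1a fl/fl libraries 1 to 4, against 171, 97.9, 143, 89.1 and 279 CPM in wt/wt libraries 1 to 5. The groups overlapped, with the lowest value in a Pot1a fl/fl library and the highest in a wt/wt one. Igll1, its partner in the surrogate light chain, stood at 103, 221, 209 and 292 CPM in Pot1a fl/fl libraries, against 234, 150.0, 180.0, 169 and 258 CPM in wt/wt libraries. Here both the lowest and the highest library were Pot1a fl/fl. Vpreb3 stood at 258, 342, 427 and 443 CPM in Pot1a fl/fl libraries, against 540.5, 307, 232, 519.8 and 579 CPM in wt/wt libraries, where 3 of the 5 lay above every Pot1a fl/fl library. Those 3 came from females. Among females Vpreb3 averaged 376 CPM in Pot1a fl/fl and 546 CPM in wt/wt libraries (exact permutation p = 0.1, the smallest that 3 against 3 allows). Among males it stood at 342 CPM in the 1 Pot1a fl/fl library and averaged 269 CPM in wt/wt libraries.

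On counts, edgeR's quasi-likelihood test with Benjamini-Hochberg adjustment called 3 of 4559 genes (0.0658%) at an adjusted p below 0.05, and 364 had an unadjusted p below 0.05. Of the 7 genes, 3 had enough counts for this test, and 0 of them were called (0 at an unadjusted p below 0.05). DESeq2 fitted all 7, with 0 at an unadjusted p below 0.05, but gave an adjusted p to Vpreb3 alone. The log2 fold of Pot1a fl/fl over wt/wt was -0.01 ± 0.36 (SE) for Vpreb1, -0.21 ± 0.29 for Vpreb3 and 0.10 ± 0.28 for Igll1, with adjusted p = 0.9998, 0.891 and 0.949 in edgeR.

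The other 4 genes were compared as CPM with an exact two-sided permutation test over libraries, whose smallest p is 0.0079. Rag2, the partner that helps RAG1 bind DNA and chromatin, averaged 6.23 ± 4.51 CPM in Pot1a fl/fl libraries (SD, n = 4) and 15.7 ± 9.95 CPM in wt/wt libraries (SD, n = 5; exact p = 0.0873). Rag1, the cutting subunit, averaged 7.20 ± 2.92 CPM in Pot1a fl/fl libraries and 14.4 ± 9.06 CPM in wt/wt libraries (exact p = 0.159). Dntt averaged 33.5 ± 32.9 CPM in Pot1a fl/fl libraries and 21.3 ± 14.8 CPM in wt/wt libraries (exact p = 0.579), and Vpreb2 36.6 ± 28.4 CPM in Pot1a fl/fl libraries and 21.003 ± 9.32 CPM in wt/wt libraries (exact p = 0.278). In all 4 the groups overlapped.

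**Figure D1:**
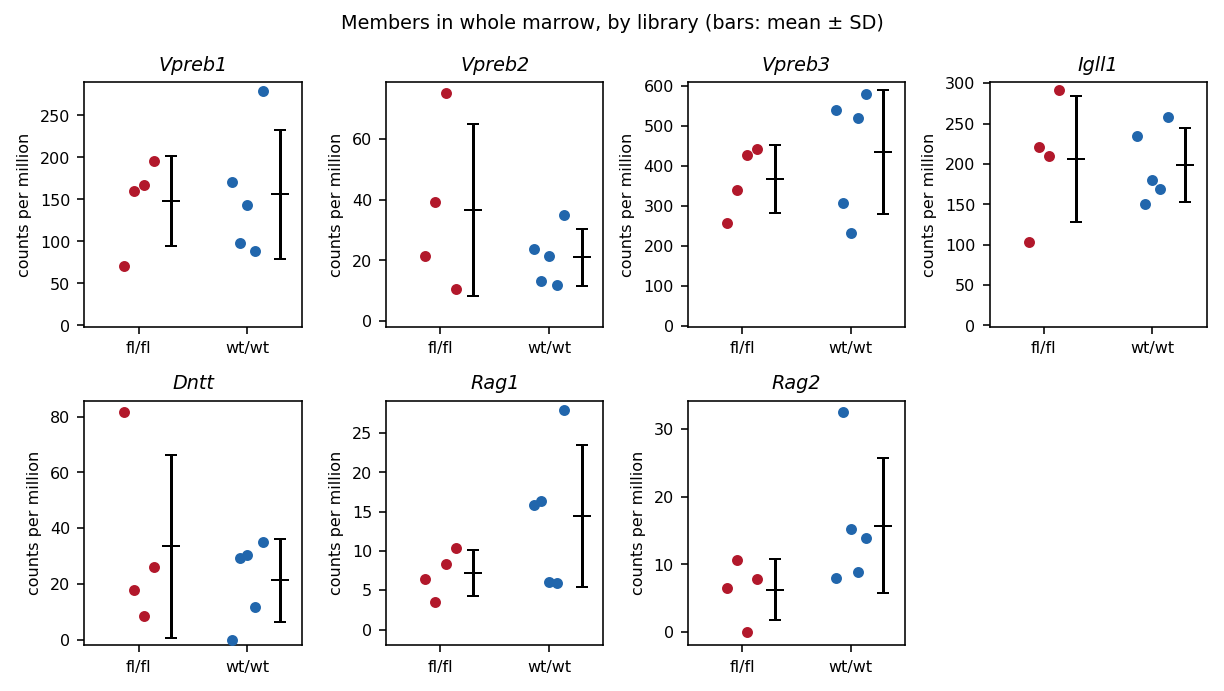
CPM in whole marrow (vertical axis, from 0, its own scale in each panel) of the 7 genes in 4 Pot1a fl/fl libraries (red, left) and 5 wt/wt libraries (blue, right), where each point is a library and bars give the mean ± SD. The genotypes overlap in every panel, and 1 Pot1a fl/fl library stands apart for Dntt (81.7 CPM).

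Most of these counts lay in B-lineage-like cells. Clustering without the 7 genes gave 232 such cells in 2 clusters, and they made up 24.2% ± 8.18 of cells in Pot1a fl/fl libraries (SD, n = 4) and 27.1% ± 3.24 in wt/wt libraries (SD, n = 5; exact permutation p = 0.484). They held 323 of the 363 counts of Vpreb1 (89.0%), 464 of 505 of Igll1 (91.9%), 884 of 1001 of Vpreb3 (88.3%) and 55 of 60 of Vpreb2 (91.7%). The shares were 90.3% for Rag2 (28 of 31 counts), 80.5% for Dntt (66 of 82) and 76.9% for Rag1 (20 of 26). Outside the lineage the genes were seen in few cells, with Vpreb3 in 10.3% of 271 granulocyte-like cells, Igll1 in 4.43%, Vpreb1 in 3.69% and Rag2 in 0 of 271, where a count of 0 allows up to 1.11% of cells with a count. Vpreb3 was seen in 11.8% of 255 erythroid-like and 16.4% of 67 monocyte/macrophage-like cells, and over all 667 cells outside the lineage in 13.2%. Granulocyte-, erythroid- and monocyte/macrophage-like cells should lack the genes, so shares near their values were read as background. The 667 cells also include the unnamed clusters described next, for which this may not hold.

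An unnamed cluster of 30 cells led by Col1a2, a collagen gene of mesenchymal cells, had Vpreb1 in 20% and Vpreb3 in 33.3% of cells. It was mixed, with 8 of 14 mesenchymal markers, 5 of the next class, and Mrc1 and Stab2 also among its leading genes. It carried 6 of 18 markers chosen for pro-B cells too. Of its 14 Vpreb1 counts, 13 came from Pot1a wt/wt 5, and its median depth was 953.5 counts per cell. Another unnamed cluster of 44 cells was led by Mcpt8, a protease gene of basophils, with Ms4a4b, Cpa3, Gata2, Angpt1 and Ccl4 also among its leading genes. This cluster carried 6 of 12 markers of T and NK cells and at most 4 of any other class, too mixed for a name. It had Vpreb3 in 20.5% and Dntt in 9.09% of cells. Of its 11 Dntt counts, 10 were in Pot1a fl/fl 1, 7 of them in 1 cell. Whether the cells of these 2 clusters express the genes, or carry RNA or a second cell of the B lineage, was not tested.

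**Figure D2:**
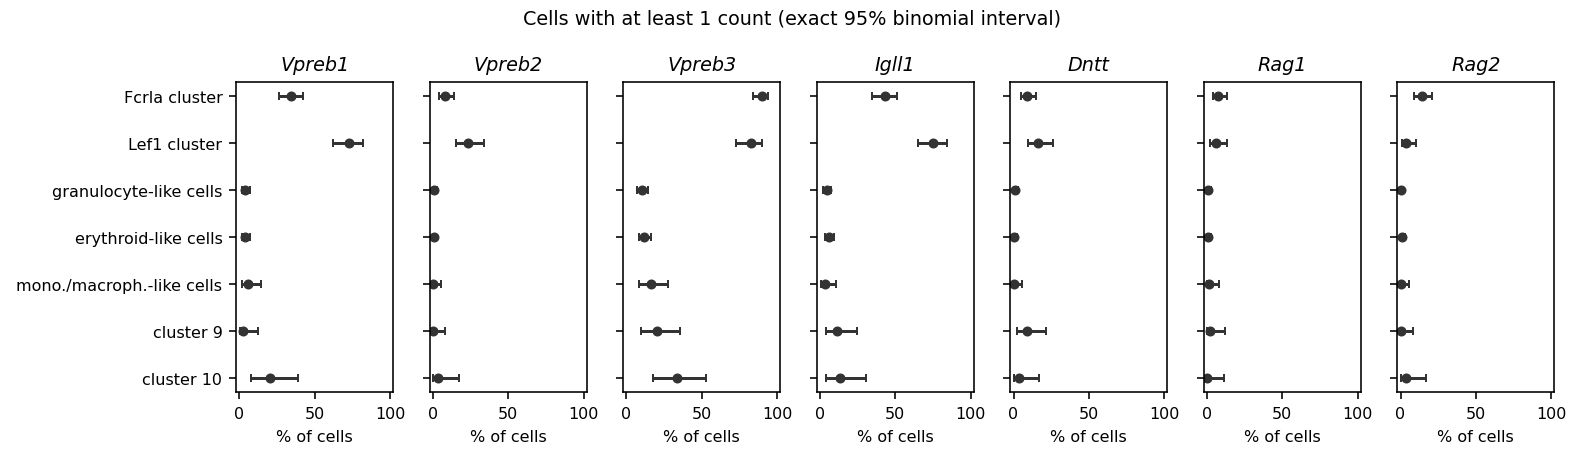
Share of cells with at least 1 count (horizontal axis, %) of each gene in 7 populations, over all libraries, with exact 95% binomial intervals. Vpreb1 and Igll1 are highest in the Lef1 cluster (72.9% and 75.3%), and Vpreb3 is high in both B-lineage-like clusters (89.8% and 82.4%). Other populations lie below both clusters, except for Dntt in cluster 9 (9.09%, against 8.84% in the Fcrla cluster). Cluster 10, of 30 cells, has Vpreb1 in 20% and Vpreb3 in 33.3% of cells, with wide intervals.

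The 2 B-lineage-like clusters were named by a leading gene, since the stage markers chosen for pro-B and pre-B cells did not separate them. The Fcrla cluster (147 cells, 10 to 23 per library) was led by Atp1b1, Fcrla, Cd72 and Il7r and carried 22 of 30 B-lineage markers. It also carried 13 of 18 pro-B markers and 8 of 22 markers of pre-B and immature cells. The Lef1 cluster (85 cells, 7 to 17 per library) was led by Bfsp2, Lef1, Ccnd2 and Mif and carried 9 of 30 B-lineage markers, with 2 of 18 and 2 of 22 stage markers. Igkc, the constant region of the kappa light chain, stood at 1113 ± 760 CPM in the Fcrla cluster and 353 ± 602 CPM in the Lef1 cluster (SD over 9 libraries), and Mki67, a gene of dividing cells, at 2549 ± 681 CPM in the Fcrla cluster and 1068 ± 433 CPM in the Lef1 cluster. Cells of the Lef1 cluster were deeper, with a median of 2985 counts against 1926 in the Fcrla cluster. The clusters come from the same cells as the values below, so levels by cluster are a description with no test. The border between them depended on the computation: when the same integration was repeated with other rounding of its arithmetic, chosen after seeing the data, 140 of the 147 cells stayed with the Fcrla cluster and 66 of the 85 with the Lef1 cluster, and 223 of the 232 remained B-lineage-like.

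In the main clustering Vpreb1 and Igll1 were higher in the Lef1 cluster in most libraries, and Vpreb3 in the Fcrla cluster. Vpreb1 averaged 460 ± 277 CPM in the Fcrla cluster and 642 ± 165 CPM in the Lef1 cluster (SD, 9 libraries). Its log2 ratio of the Fcrla over the Lef1 cluster, with 100 CPM added to each, averaged -0.53 (SD 0.76) and was negative in 7 of 9 libraries, the exceptions being Pot1a fl/fl 3 and wt/wt 5, the shallowest. Igll1 averaged 598 ± 282 CPM in the Fcrla cluster and 938 ± 206 CPM in the Lef1 cluster, and its log2 ratio of -0.64 (SD 0.60) was negative in 8 of 9 libraries. Vpreb3 averaged 1896 ± 383 CPM in the Fcrla cluster and 1034 ± 454 CPM in the Lef1 cluster, and its log2 ratio of 0.87 (SD 0.49) was positive in 8 of 9 libraries. With other rounding the 3 ratios averaged -0.82, -0.93 and 0.73 over the 8 libraries with enough cells, all on the same side of 0. At a clustering resolution of 0.6 they averaged -0.07 (SD 0.88), -0.25 (SD 0.63) and 1.26 (SD 0.41), with Igll1 negative in 6 of 9 libraries. There the cluster that held 83 of the 85 Lef1 cells was larger and took no class name, so the Vpreb1 and Igll1 order depends on the clustering.

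By library, Vpreb3 in the Fcrla cluster stood at 1583, 1991, 1889 and 1994 CPM in Pot1a fl/fl libraries, against 1846, 1857, 1179.7, 2591 and 2135 CPM in wt/wt libraries. In the Lef1 cluster it stood at 657, 1003, 2100.5 and 697 CPM in Pot1a fl/fl libraries, against 1105, 927, 686, 822 and 1306 CPM in wt/wt libraries. Pot1a fl/fl 3 was the only library in which Vpreb3 was higher in the Lef1 cluster.

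The order of the clusters by share of cells with a count was the same in cells thinned to an equal depth. Thinning leaves out the shallowest cells, and the part of depth in the CPM order was not tested. With each cell thinned to 1000 counts, which kept 124 of 147 and 78 of 85 cells, Vpreb1 was seen in 20.2% of the Fcrla and 55.1% of the Lef1 cluster, against 34.0% and 72.9% unthinned. Igll1 was seen in 30.6% and 56.4% of thinned cells, against 42.9% and 75.3% unthinned, and Vpreb3 in 85.5% and 52.6%, against 89.8% and 82.4%. In granulocyte-like cells thinned to the same depth the shares were 0.826% for Vpreb1, 1.24% for Igll1 and 5.79% for Vpreb3.

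The recombination genes were too sparse to order by cluster. Dntt averaged 98.8 ± 88.2 CPM in the Fcrla cluster and 123 ± 146 CPM in the Lef1 cluster, and Rag1 45.3 ± 37.1 CPM in the Fcrla cluster and 26.9 ± 42.5 CPM in the Lef1 cluster. Rag2 was seen in 14.3% of cells of the Fcrla cluster (21 of 147) and 3.53% of the Lef1 cluster (3 of 85), and in 8.87% and 1.28% after thinning. In CPM, Rag2 averaged 67.7 ± 55.0 in the Fcrla cluster and 21.1 ± 45.8 in the Lef1 cluster, with 4 of the 6 Lef1 counts in 1 deep cell of Pot1a wt/wt 2. Vpreb2 averaged 120.4 ± 203 CPM in the Fcrla cluster and 123 ± 85.7 CPM in the Lef1 cluster.

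**Figure D3:**
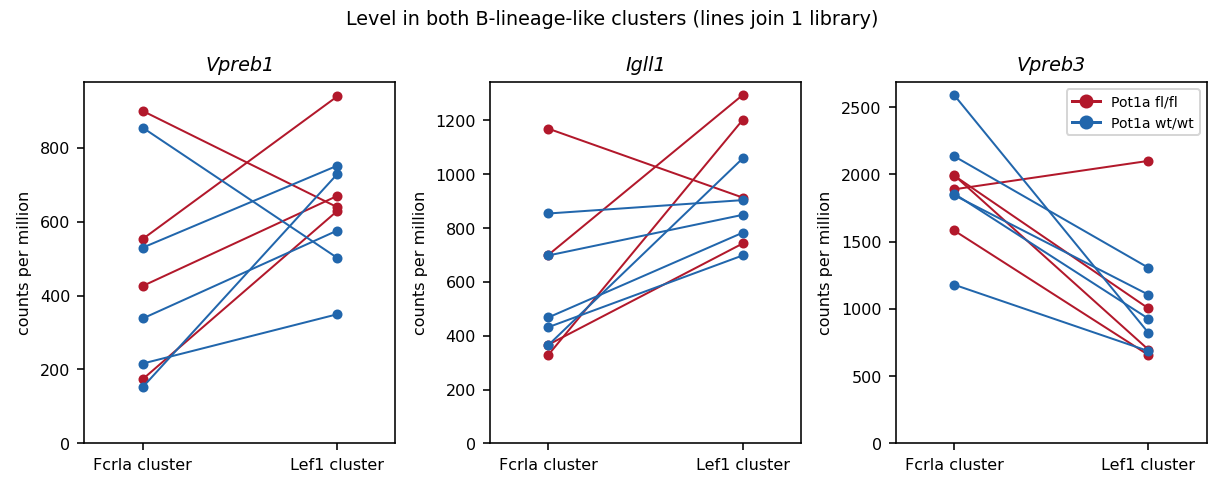
CPM (vertical axis, from 0) of Vpreb1, Igll1 and Vpreb3 in the Fcrla cluster (left) and the Lef1 cluster (right) of each library, with lines joining 1 library, Pot1a fl/fl in red and wt/wt in blue. Vpreb1 lines go up to the right in 7 of 9 libraries and Igll1 lines in 8 of 9, while Vpreb3 lines go down in 8 of 9.

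Within single cells the surrogate light chain genes were seen together. Of the 112 B-lineage-like cells with Vpreb1, 99 (88.4%) also had Igll1, against 23.3% of the 120 cells without Vpreb1. The share was 84% in the Fcrla cluster (42 of 50) and 91.9% in the Lef1 cluster (57 of 62), so it was high within both. Of the 32 cells with Vpreb2, 29 (90.6%) had Vpreb1, against 41.5% of the 200 cells without Vpreb2. Of the 27 cells with Dntt, 25 had Vpreb1 (92.6%), 25 had Igll1 and 13 had Vpreb2 (48.1%), against 42.4%, 49.8% and 9.27% of the 205 cells without Dntt.

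The recombinase genes were seen in fewer cells. All 24 cells with Rag2 had Vpreb3, which 85.6% of the other 208 cells also had, and 13 of the 24 (54.2%) had Vpreb1, against 47.6% of the others. Rag1 and Rag2 were seen together in 4 cells, of 16 with Rag1 and 24 with Rag2. At least 4 of the 7 genes were seen in 43 of 232 B-lineage-like cells, 22 of the Fcrla and 21 of the Lef1 cluster, and in 0 of 667 other cells. None of the 7 was seen in 6.47% of B-lineage-like cells and 77.8% of others. Cells with a gene were often deeper, with a median of 2980 counts with Vpreb1 and 1659 without, and the part of depth in these shares was not tested.

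Counts of Igll1 were above those of Vpreb1 in every library. In B-lineage-like cells there were 1.41 ± 0.07 Igll1 counts per Vpreb1 count in Pot1a fl/fl libraries (SD, n = 4) and 1.48 ± 0.34 in wt/wt libraries (SD, n = 5; exact permutation p = 0.738), with a range of 1.17 to 2.00. Of the counts of both VpreB genes, Vpreb2 took 20.6% ± 12.0 in Pot1a fl/fl libraries and 11.4% ± 4.06 in wt/wt libraries (n = 4 and 5, exact permutation p = 0.135). The range was 4.17% to 34.6%, and both values rest on the split of reads between near-identical transcripts.

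Between genotypes, the abundant members did not pass the test within the B lineage. In B-lineage-like cells edgeR called 1 of 1484 genes (0.0674%), none of them among the 7, with 52 genes at an unadjusted p below 0.05 and 0 called by DESeq2. Vpreb1 stood at 357, 758, 770.3 and 569 CPM in Pot1a fl/fl libraries, against 464, 428, 624, 284 and 741 CPM in wt/wt libraries, so that the log2 fold was 0.25 ± 0.31 (SE) with an adjusted p of 0.972 in edgeR. Igll1 stood at 518, 1017, 1042 and 841 CPM in Pot1a fl/fl libraries, against 635, 698, 762, 568 and 870.1 CPM in wt/wt libraries (log2 fold 0.25 ± 0.26, adjusted p = 0.972, edgeR). For both genes the 2 highest libraries were Pot1a fl/fl and the groups overlapped. Vpreb3 averaged 1475 ± 364 CPM in Pot1a fl/fl libraries and 1478 ± 339 CPM in wt/wt libraries (log2 fold -0.03 ± 0.24, adjusted p = 0.996, edgeR).

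The 3 genes did not pass within either cluster. In the Fcrla cluster edgeR called 0 of 809 genes (0.0%), with 24 at an unadjusted p below 0.05, and the log2 folds were 0.16 ± 0.52 for Vpreb1, -0.05 ± 0.25 for Vpreb3 and 0.01 ± 0.43 for Igll1. In the Lef1 cluster it called 0 of 595 genes (0.0%), with 20 at an unadjusted p below 0.05, and the log2 folds were 0.31 ± 0.30 for Vpreb1, 0.08 ± 0.35 for Vpreb3 and 0.30 ± 0.26 for Igll1. Here libraries with 5 or more cells were used, a minimum lowered after too few were found to hold 10.

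Among the 4 sparse genes, Rag1 had the smallest p between genotypes. It stood at 11.5, 17.2, 0 and 16.0 CPM in B-lineage-like cells of Pot1a fl/fl libraries, against 48.8, 79.3, 27.7, 21.1 and 96.7 CPM in wt/wt libraries. These are 4 counts of 291745 in Pot1a fl/fl libraries and 16 of 343143 in wt/wt libraries. Every Pot1a fl/fl library lay below every wt/wt library (exact two-sided permutation p = 0.0397, unadjusted), as for 48 of 6284 genes with at least 10 counts in these cells (0.764%).

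In the Fcrla cluster alone, Rag1 stood at 0, 36.9, 0 and 19.4 CPM in Pot1a fl/fl libraries, against 104, 60.9, 48.2, 43.2 and 94.9 CPM in wt/wt libraries. There the counts were 2 in Pot1a fl/fl libraries and 12 in wt/wt libraries, again with no overlap (exact p = 0.0159, unadjusted). The same held for 44 of 4623 genes (0.952%). A single count made up the value of Pot1a fl/fl 2 and of Pot1a fl/fl 4, and 3 counts, the most that a 0 allows, stand for 57.9 CPM in Pot1a fl/fl 1 and 269.8 CPM in Pot1a fl/fl 3, so no fold is given. Among the females only, Rag1 averaged 6.45 CPM in Pot1a fl/fl libraries and 80.7 CPM in wt/wt libraries (exact permutation p = 0.1, the smallest that 3 against 3 allows), and among the males 36.9 CPM in the 1 Pot1a fl/fl library and 54.5 CPM in the wt/wt libraries. Vpreb3 and Rag2 in whole marrow, Rag1 in B-lineage-like cells and Vpreb1 in the Lef1 cluster also reached that p among females. These comparisons covered all 7 genes in 4 populations and are unadjusted.

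The share of B-lineage-like cells with a Rag1 count was 4.00% ± 2.72 in Pot1a fl/fl libraries and 9.03% ± 3.72 in wt/wt libraries (SD, n = 4 and 5, exact permutation p = 0.0714), against 0.738% of granulocyte-like cells. With cells thinned to 1000 counts it was 0.694% ± 1.39 in Pot1a fl/fl libraries and 2.36% ± 2.22 in wt/wt libraries (SD, n = 4 and 5, exact permutation p = 0.246), against 0.413% of granulocyte-like cells. The difference in CPM kept an exact p of 0.0286, the smallest that 4 against 4 allows, with wt/wt 2 and 3 as 1 library, in B-lineage-like cells as in the Fcrla cluster. In B-lineage-like cells the p passed 0.05 without any 1 of the Pot1a fl/fl libraries (exact p = 0.0536 to 0.0714), and was 0.0556 with other rounding, without integration or with the 7 genes in the clustering, where the groups overlapped. In the Fcrla cluster the p lay between 0.0286 and 0.0357 without any 1 of the 9 libraries, and was 0.0238 with other rounding, 0.0952 without integration and 0.183 with the 7 genes in the clustering, so the call rests on which cells are counted. In B-lineage-like cells DESeq2 gave Rag1 a log2 fold of -1.93 ± 1.07 (SE, adjusted p = 0.998).

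Rag2, Dntt and Vpreb2 overlapped between genotypes. In B-lineage-like cells Rag2 stood at 34.6, 51.7, 0 and 24.0 CPM in Pot1a fl/fl libraries, against 24.4, 159, 55.4, 21.1 and 32.2 CPM in wt/wt libraries (exact permutation p = 0.421, n = 4 and 5). Dntt stood at 299.5, 68.9, 45.3 and 72.1 CPM in Pot1a fl/fl libraries, against 0, 143, 125, 31.6 and 161 CPM in wt/wt libraries (exact permutation p = 0.722, n = 4 and 5). Most libraries of both groups lay within the range of the other, and 1 cell held 13 of the 26 counts behind the highest Dntt value.

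Vpreb2 stood at 104, 189.6, 408 and 32.0 CPM in Pot1a fl/fl libraries, against 73.3, 63.4, 97.0, 42.1 and 32.2 CPM in wt/wt libraries (exact p = 0.0952). Pot1a fl/fl held both the highest libraries and the lowest. In the Fcrla cluster Vpreb2 stood at 38.6, 406, 539.7 and 19.4 CPM in Pot1a fl/fl libraries, against 26.0, 30.4, 24.1, 0 and 0 CPM in wt/wt libraries, or 20 and 3 counts. Here the groups overlapped at Pot1a fl/fl 4, and the exact p was 0.0317 (unadjusted).

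The high values came from Pot1a fl/fl 2, with 11 counts in 5 cells, and Pot1a fl/fl 3, with 6 counts in 2 cells, 5 of them in 1. With other rounding of the integration the difference was 65.5 CPM (exact p = 0.476), so it was not stable. With wt/wt 2 and 3 as 1 library the p was 0.0857, and without 1 library it lay between 0.0714 and 0.114 for all but Pot1a fl/fl 4. Without Pot1a fl/fl 3 the difference dropped to 138 CPM (exact p = 0.0714), while leaving out Pot1a fl/fl 4 gave 312 CPM (exact p = 0.0179), against 235 CPM with every library. In B-lineage-like cells the difference was 172 CPM without Pot1a fl/fl 4 (exact p = 0.0179) and 46.8 CPM without Pot1a fl/fl 3 (exact p = 0.304), against 122 CPM with every library. In the Lef1 cluster Vpreb2 averaged 129 ± 130 CPM in Pot1a fl/fl libraries and 119 ± 44.8 CPM in wt/wt libraries (exact permutation p = 0.833, n = 4 and 5). Of 16 such tests, of 4 genes in 4 populations, 3 gave an exact p below 0.05, those of Rag1 in B-lineage-like cells and in the Fcrla cluster and of Vpreb2 in the Fcrla cluster. The populations share cells, so these tests are not separate. Of the 20 Rag1 counts in B-lineage-like cells, 14 lay in the Fcrla cluster.

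**Figure D4:**
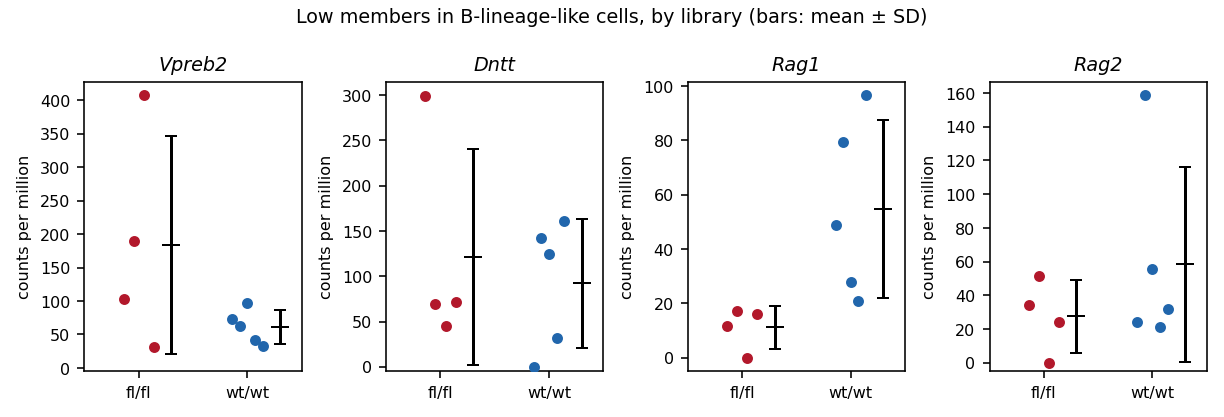
CPM in B-lineage-like cells (vertical axis, starting just below 0, its own scale in each panel) of the 4 genes too low for the count test, in 4 Pot1a fl/fl (red, left) and 5 wt/wt libraries (blue, right), where bars give the mean ± SD. Rag1 is below 17.3 CPM in each Pot1a fl/fl library and at 21.1 CPM or more in each wt/wt library, while the other 3 overlap.

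Whether the pattern over clusters differed with genotype was asked of each gene, and Vpreb2 alone had an exact p below 0.05. Its log2 ratio of the Fcrla over the Lef1 cluster was 0.44 ± 1.48 in Pot1a fl/fl libraries (SD, n = 4) and -0.90 ± 0.24 in wt/wt libraries (SD, n = 5), a difference of 1.34 (exact permutation p = 0.0476, unadjusted over 7 genes). For the other 6 genes the exact p was 0.127 or more. Without 1 library the Vpreb2 difference lay between 0.71 and 1.86, with exact p between 0.0179 and 0.143. With other rounding the difference was -0.14 (exact permutation p = 0.886) over 8 libraries, and without integration 0.67 (exact permutation p = 0.4), so the Vpreb2 difference did not hold.

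The genes outside the 7 whose levels followed each most closely were ranked across 32 sums of library by population. The measure was Pearson's r of log2(CPM + 10) over 5700 genes with at least 50 counts, and the sums share libraries, so it is a description. Vpreb1 was followed most closely by Mzb1 (r = 0.89), a chaperone of immunoglobulin assembly, Ighm (0.89), the mu heavy chain, and Pou2af1 (0.87), a B-cell coactivator. Vpreb3 was followed by Mzb1 (0.96), Pou2af1 (0.95) and Ebf1 (0.95), a factor that sets the B-cell programme, and Igll1 by Pax5 (0.92), a factor of B-cell commitment, Rsph1 (0.91) and Ighm (0.91). Dntt, with 82 counts, was followed by 2810417H13Rik (0.80), Ablim1 (0.80) and Id3 (0.79), and Vpreb2, with 60 counts, by Pqbp1 (0.77), Zfp706 (0.75) and Lef1 (0.74).

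Other genes of the pathway did not pass either. Of 20 genes of the pre-B-cell receptor complex and its signalling, 12 were tested in whole marrow, 0 were called in either direction, and the median log2 fold was -0.16 (2 positive), against -0.002 over all 4559 genes. The widest were Cd79b, a signalling chain of the receptor (-0.79 ± 0.40, SE), Dapp1, an adaptor (0.38), and Syk, the kinase it recruits (-0.28). In B-lineage-like cells 8 were tested, 0 were called, and the median was -0.30 (1 positive) against -0.01 over all 1484 genes, with Ccnd3, a cyclin of pre-B-cell division, at -0.56, Cd79b at -0.51 and Btk, a kinase, at -0.39.

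Of 17 partners in end joining and recombination, 5 were tested in whole marrow (median 0.10, 0 called), with Xrcc6, the Ku70 subunit that holds broken ends, at -0.33 and Kpna1, an importin, at 0.24. In B-lineage-like cells 3 were tested (median 0.02, 0 called): Hmgb1 at 0.16, Xrcc6 at 0.02 and Hmgb2 at 0.01. Of 18 transcription factors of B-cell precursors, 15 were tested in whole marrow (median -0.06, 0 called). Among them Spib stood at -1.26 ± 0.49 (SE, adjusted p = 0.497, edgeR), Spi1, which myeloid cells use widely, at 0.88 ± 0.25 (adjusted p = 0.333, edgeR) and Pou2af1 at -0.70. Granulocyte-like cells, a part of the marrow rich in Spi1, were 37% ± 10.9 of cells in Pot1a fl/fl libraries and 24.6% ± 5.13 in wt/wt libraries, and their part in that value was not tested. In B-lineage-like cells 11 factors were tested (median -0.20, 0 called), with Erg at 0.80, Pou2af1 at -0.58 and Tcf4 at -0.40.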

How the data were processed

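The authors aligned Drop-seq reads to the mouse genome (mm10; STAR is named in the submitters' processing notes) and deposited whole-number counts per gene and barcode, with no normalization, made with the Drop-seq software. The methods call them read counts; whether molecular identifiers were collapsed is not given in the sources used here. Barcodes with at least 200 counts and at most 25% mitochondrial counts were kept. Libraries were joined by anchors and clustered in Seurat 5.3.0 (R 4.3.3; 2000 variable genes without the 7, 20 components, resolution 1). A cluster took a class name where at least 3 markers of that class were seen in 10% or more of its cells at 2-fold the level elsewhere, at least 2 times as many as of any other class and more of them than of other classes among its leading genes, a rule set after the clusters were seen. Possible doublets (Scrublet score above 0.15 per library, in scanpy 1.11.5, Python 3.11.15; 1 fixed score was used after the automatic thresholds marked far more cells in the 2 shallowest libraries than in the rest) were kept. The integration was sensitive to rounding, so it was repeated with other kernels of the linear algebra library (OpenBLAS) as an alternative. The stage tests planned for pro-B and pre-B cells were run on the Fcrla and Lef1 clusters.

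Counts summed per library were tested with edgeR 4.0.16 (TMM, filterByExpr, quasi-likelihood, Benjamini-Hochberg over all genes tested, threshold 0.05), checked on simulated data, and DESeq2 1.42.0 as an alternative. Genes below the filter were tested as CPM by exact permutation (scipy 1.17.1). The thresholds, alternatives and lists are those the text gives. Named besides the 7 are the 3 genes most like each with at least 50 counts, and the 3 widest log2 folds of each list, of which 1 is not reported here. The 7 genes and the lists were chosen with earlier results of these data known. Gene models are GENCODE M21, and promoters RefSeq.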

Additional observations from a re-analysis of the deposited data

Results flagged for a closer look

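Of 56 groups of 4 or 5 libraries looked at for a library far from the rest, 7 held one. The cut-off flags about 1 in 20 groups of normally distributed values, a rate that does not hold for sparse counts. A group with only 1 library above 0 is always flagged, and the populations share cells, so 7 cannot be set against that rate. In the Lef1 cluster these were Vpreb1 in Pot1a fl/fl 2 (939 CPM, the others 628 to 669), Dntt in Pot1a fl/fl 1 (343 CPM, the others 0 to 54.6) and Rag2 in Pot1a fl/fl 1 (57.1 CPM from 2 counts, the others 0). In the same cluster Vpreb2 stood apart in Pot1a wt/wt 3 (196 CPM, the others 82.2 to 115) and Rag2 in Pot1a wt/wt 2 (132 CPM, the others 0). In B-lineage-like cells Dntt stood apart in Pot1a fl/fl 1 (299.5 CPM, the others 45.3 to 72.1) and Rag2 in Pot1a wt/wt 2 (159 CPM, the others 21.1 to 55.4). The 4 Rag2 counts of Pot1a wt/wt 2 in the Lef1 cluster were in 1 cell of 8919 counts.

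The log2 ratio of Vpreb2 between the Fcrla and the Lef1 cluster differed between Pot1a fl/fl and wt/wt libraries by 1.34 (exact permutation p = 0.0476, n = 4 and 5), and was 1 of 7 ratios tested. It was -0.14 (exact permutation p = 0.886) when the integration was repeated with other rounding.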

How the results depend on the processing

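With 48 results set against 622 alternatives, 519 were scored as unchanged. For tests this meant the same direction and side of the threshold, and for numbers of genes called a like number. For mean log2 ratios by cluster it meant a move below the SD over libraries, whatever the sign. Some alternatives could not differ or were scored under more than 1 name. At a resolution of 1.5 both B-lineage-like clusters held the same cells as in the main clustering. At 0.6 the B-lineage-like cells were the Fcrla cluster alone (151 cells). Of the 7 genes, 0 were called by edgeR or DESeq2 under any of the 52 alternatives. Most of these runs tested only 2 to 4 of the 7, since the filter removed the sparse genes. Of 155 log2 folds, all of uncalled genes, 28 changed sign. The whole-marrow test called 1 gene with wt/wt 2 and 3 as 1 library, 12 with DESeq2 and 69 with no filter on low counts, against 3. In B-lineage-like cells it called 0 with the pair as 1 library, with DESeq2, with the 7 genes in the clustering, at resolution 0.6 or with other rounding of the integration, and 15 with no filter, against 1.

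Replicate numbers do not pair these libraries (same-numbered correlations -0.16 to 0.01). With the replicate number as a block, 2 genes were called in whole marrow and 5 in B-lineage-like cells, and the log2 folds turned to 0.29 for Vpreb1 in whole marrow and 0.069 for Vpreb3 in B-lineage-like cells. Without integration the Vpreb3 value was 0.018. That of Igll1 in the Fcrla cluster was -0.034 with the pair as 1 library and -1.10 with the 7 genes in the clustering. The difference in Vpreb3 share was -3.51 points in thinned cells, that in Rag1 share -4.99 points (exact permutation p = 0.0286) with the pair as 1 library, and that in Vpreb2 CPM in the Fcrla cluster 238 (exact p = 0.0857). With the 7 genes in the clustering, the log2 ratios of the Fcrla over the Lef1 cluster were -1.73 for Vpreb1, -1.53 for Igll1, -1.38 for Dntt and -0.036 for Rag2, since the clusters were then drawn with these genes. The cause of the other moves was not tested.

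The integration depended on rounding, found and added as an alternative after seeing the data. With other rounding the log2 folds were 0.028 for Vpreb3 in B-lineage-like cells, and -0.069 for Vpreb1 and -0.14 for Igll1 in the Fcrla cluster. The genotype difference of the Vpreb2 log2 ratio was -0.14 with other rounding, -0.11 with the 7 genes in the clustering, 0.67 without integration and 1.28 with doublets removed (exact permutation p = 0.886, 0.873, 0.4 and 0.0952), against 1.34. B-lineage-like cells clustered alone gave 4 clusters, and 5 with other rounding, so finer clusters are not described.

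With each library left out in turn, 1 to 3 genes were called in whole marrow and 0 to 2 in B-lineage-like cells. The log2 folds lay between -0.17 and 0.28 for Vpreb1 and -0.085 and 0.35 for Igll1 in whole marrow, and between -0.19 and 0.059 for Vpreb3 in B-lineage-like cells. In the Fcrla cluster they lay between -0.14 and 0.54 for Vpreb1, -0.23 and 0.036 for Vpreb3, and -0.34 and 0.26 for Igll1. The differences in share of B-lineage-like cells lay between -3.97 and 4.04 points for Vpreb3, -6.36 and -3.70 for Rag1, and -6.42 and 1.15 for Rag2. The genotype differences of the log2 ratio of clusters lay between -0.35 and 0.27 for Vpreb1, 0.71 and 1.86 for Vpreb2, -0.27 and 0.25 for Vpreb3, and -0.51 and 0.13 for Igll1. Those in Dntt CPM lay between -3.93 and 20.5 in whole marrow and -29.9 and 54.8 in B-lineage-like cells, the lower value of each without Pot1a fl/fl 1.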
